A study of Mus musculus with 9 samples.

Results

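Gasdermins are a protein family whose members carry a pore-forming front part held in check by the rear part. When a protease cuts between them, the freed front part inserts into membranes and opens pores, which lets interleukin-1 family cytokines out and can end in a lytic cell death called pyroptosis. Gasdermin D (Gsdmd) is cut by the inflammatory caspases and is best known from macrophages and gut epithelium, gasdermin A (Gsdma) is known from skin and the upper digestive tract, and gasdermin C genes are known from squamous and intestinal epithelium.

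Gasdermin transcripts were followed across 3 adjoining zones of the stomach of female C57Bl/6 mice, which were healthy, untreated and 3 months old. The zones were the squamocolumnar junction, where squamous and glandular epithelium meet at the limiting ridge, the forestomach, the non-glandular part lined by squamous epithelium, and the corpus, the acid-secreting glandular part. Stripes 600 to 800 µm wide, cut side by side from the stomachs of 9 mice, were pooled by 3 mice, which gave 3 series with 1 array per zone in each, or 9 arrays. All zones of a series came from the same mice, and no array holds a single animal.

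The members are the probe sets that the platform annotation gives to exactly 1 of the genes Gsdma, Gsdmc, Gsdmc2 and Gsdmd. They number 4 of 45101 probe sets, for 3 of the 4 genes: 1423634_at and 1457777_at for Gsdma, 1454883_at for Gsdmc2 and 1428767_at for Gsdmd. No probe set carries Gsdmc alone, so Gsdmc has 0 members and no value of its own here. All 4 members passed the filter on low signal, which asked for a signal above the 40th percentile of its own array (29.0 to 36.5) on at least 3 arrays. In the gene table Gsdma lies next to Gsdma2, and Gsdmc next to Gsdmc2.

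Values are MAS5 signals on a linear scale, and signals of different probe sets were not set against each other. Differences are on the log2(signal + 9.8) scale, are called at an adjusted p below 0.05 by limma, and understate the change of dim probe sets. Across 29511 probe sets tested, arrays of 1 zone correlated at r = 0.973 or higher (across probe sets, which are not independent replicates), and array medians ran from 47.9 to 57.1. The zones held their defining markers. Of 10 squamous markers 10 were called higher in the junction and 9 in the forestomach than in the corpus, and of 10 gastric gland markers 7 were called lower in the forestomach than in the corpus and 0 differed between junction and corpus by limma, at adjusted p below 0.05. None of 5 hair follicle keratin and trichohyalin genes passed the filter, with a highest signal of 36.1 on any array, and the intestinal master gene Cdx2 stayed at 19.7 or below. The summed signal of 5 smooth muscle markers was 40825.2 to 46480.1 in the forestomach. It was 17575.4 to 21768.9 in the junction and 16295.5 to 24102.4 in the corpus. All 5 were called higher in forestomach than corpus, beside 25.2% of all probe sets, and lower in junction than forestomach, beside 20%. Between junction and corpus 0 were called, beside 19.1%. The part of muscle content in the zone differences was not tested. Forestomach arrays 2 and 3 had higher gastric gland marker signals than array 1, at a median of 0.453%, 3.52% and 5.22% of the corpus mean on arrays 1, 2 and 3, and the cause was not tested. The summed signal of the 10 markers was 1352.3, 24734.2 and 32120.0 on these arrays, against 95259.7 to 141468.4 in the corpus. It was raised by the gastrokines and the trefoil factor gene Tff1, named after their values were seen. In the forestomach Gkn1 read 260.4, 7130 and 10404, Gkn2 387, 9453.6 and 11877.4, and Tff1 470.1, 5624.5 and 6218.8. The Gkn2 forestomach arrays overlapped the corpus, where the lowest array read 9126.

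The gasdermin members took 3 different courses. Gsdma was high in the forestomach, lower in the junction and at or below the filter level in the corpus. Gsdmc2 was highest in the junction and called above both neighbours, and Gsdmd was called in no comparison.

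**Figure D1:**
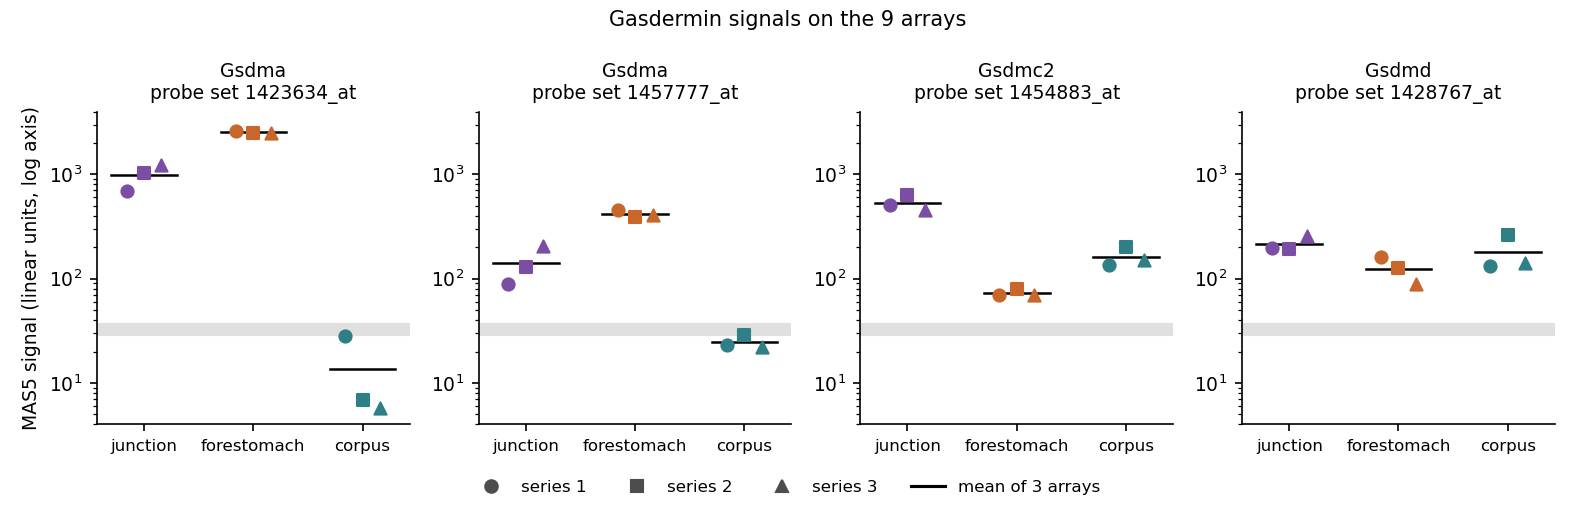
Signal of the 4 gasdermin probe sets on the 9 arrays, in linear MAS5 units on a log axis, for junction, forestomach and corpus. Symbols stand for series 1, 2 and 3, black bars for the mean of 3 arrays, and the grey band for the filter level of the arrays (29.0 to 36.5). Gsdma peaks in the forestomach (mean 2537 for 1423634_at), Gsdmc2 in the junction (mean 532), and the Gsdmd arrays of the zones overlap except between junction and forestomach.

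Gsdma, the gasdermin of keratinised epithelia, separated the squamous zones from the corpus. Probe set 1423634_at had signals of 2616.0, 2497.6 and 2498.4 on the forestomach arrays, against 28.3, 6.8 and 5.8 on the corpus arrays. The forestomach arrays lay within a narrow band and did not overlap the corpus, where every array was under its filter level. The forestomach mean was 2537 ± 68.1 and the corpus mean 13.6 ± 12.7 (SD, n = 3 each), a log2 difference of 6.89 ± 0.33 (SE, 119-fold, limma adjusted p = 7.36e-07). Because the corpus signal is so dim, the size of this fold rests on the pseudocount, at 219-fold with 1 and 59.1-fold with 30.9. The second Gsdma probe set, 1457777_at, read 459.6, 391.9 and 406.8 in the forestomach, against 23.3, 28.9 and 22.3 in the corpus. It ran the same way without overlap, with a smaller difference of 3.63 ± 0.25 (12.4-fold, limma adjusted p = 5.20e-06). Averaging both probe sets gave 38.4-fold. Of the 4 gasdermin members 3 were called between forestomach and corpus, beside 52.8% of all probe sets tested, and for 3 the arrays did not overlap, beside 61.2%.

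In the junction, Gsdma lay between its neighbours. Probe set 1423634_at had 698.3, 1033.5 and 1215.4 on the junction arrays, all above the corpus and all below the forestomach. Its junction mean of 982 ± 262 (SD, n = 3) was 45.1-fold above the corpus (log2 difference 5.50 ± 0.33, limma adjusted p = 1.28e-05), or 70.3-fold without series 1, 82.7-fold with pseudocount 1, 22.8-fold with 30.9 and 13.7-fold when both probe sets were averaged. Against the forestomach it was 2.63-fold lower (log2 difference -1.40 ± 0.33, limma adjusted p = 0.0109). That call was lost without series 2 (adjusted p = 0.0752), without forestomach arrays 2 and 3 together (0.107) and with pseudocount 1 (0.0637), over a range of 6.69e-04 to 0.107 in all alternatives. Probe set 1457777_at read 88.1, 129.4 and 207.1 in the junction and was called in both comparisons under each alternative in which it was tested, with log2 differences of 2.06 ± 0.25 against corpus (adjusted p = 9.16e-04) and -1.58 ± 0.25 against forestomach (adjusted p = 0.00141, both limma). Of the 4 members 3 were called between junction and corpus and 3 between junction and forestomach, beside 19.1% and 37.4% of all probe sets tested. Arrays that do not overlap were found for 3 members between junction and corpus and for 4 between junction and forestomach, beside 40.1% and 50.8% of all probe sets. Both Gsdma probe sets were called above the corpus in junction and forestomach alike, beside 8.11% of all probe sets.

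Where the junction lies between corpus (0) and forestomach (1) on the linear scale can be read within each series. Gsdma 1423634_at stood at 0.259, 0.412 and 0.485 in series 1, 2 and 3, and 1457777_at at 0.149, 0.277 and 0.481. The 943 probe sets that were called higher in forestomach than corpus by more than 2 on the log2 scale, with no overlap, had medians of 0.276, 0.415 and 0.444. By its mean position 51.4% of these probe sets lay below 1423634_at and 33.1% below 1457777_at, so Gsdma sits in the middle range of forestomach-high transcripts. The junction array of series 1, the lowest for Gsdma, also had the lowest summed squamous marker signal, 66450.4 against 77624.5 and 86649.7 in the other junction arrays and 83827.3 to 88974.1 in the forestomach. The part of squamous tissue content in the Gsdma values was not tested, and in bulk tissue fewer cells of a type and less RNA per cell cannot be told apart. The squamous markers as a list had a median junction minus forestomach difference of -0.13, with 1 of 10 called lower (involucrin, Ivl, a cornified envelope protein, -1.83) and 1 higher (the stress keratin Krt6a, 3.88).

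The genes most like Gsdma over the 9 arrays were genes of the upper squamous layers. Likeness was the root mean square difference of log2 values after each gene was centred on its own mean, over 13015 named genes whose median distance from Gsdma was 3.02. Filaggrin (Flg), which bundles keratin in the cornified layer, was closest at 0.13. It was followed by the desmosomal cadherin Dsc1 (0.18), the epidermal calmodulin-like gene Calm4 (0.20), the epidermal lipase gene Lipm (0.26) and Il1f5, which encodes the interleukin-36 receptor antagonist (0.27). Flg had forestomach minus corpus, junction minus corpus and junction minus forestomach log2 differences of 6.77, 5.40 and -1.37, beside 6.89, 5.50 and -1.40 for Gsdma 1423634_at. The 9 arrays share their zones and pools, so this likeness is a description of these libraries.

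Gsdma2, the neighbouring gene of the A group, followed the opposite zone order. Its 5 probe sets were all kept, and 1432140_at, the one with the highest mean, read 51.7, 227.6 and 422.8 in the forestomach, against 11266.3, 11163.8 and 8983.9 in the corpus. The zones did not overlap, and the forestomach was 56.4-fold lower (log2 difference -5.82 ± 0.58, limma adjusted p = 4.56e-05). All 5 Gsdma2 probe sets were called lower in the forestomach than in the corpus, with log2 differences from -6.74 to -5.43. The Gsdma2 forestomach signal moved with the gastric gland markers: a median of 0.219%, 1.86% and 2.48% of the corpus mean over its probe sets on forestomach arrays 1, 2 and 3. What raised both was not tested, and the fold for 1432140_at was 32.5 without array 1, 86.3 without array 3, 31.3 without series 1, 92.9 without series 3 and 170 without arrays 2 and 3.

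At the junction Gsdma2 stayed near its corpus level. Probe set 1432140_at read 9274.2, 8278.3 and 8547.9 in the junction, overlapping the corpus arrays, with a log2 difference of -0.26 ± 0.58 (limma adjusted p = 0.783). None of its 5 probe sets was called between junction and corpus (log2 differences -0.77 to -0.23), although 3 of them, 1430236_s_at, 1430658_a_at and 1453438_x_at, had all junction arrays below all corpus arrays. The forestomach arrays widen this shared error. Fitted on the 6 junction and corpus arrays alone, 1430658_a_at and 1453438_x_at were called lower in the junction (adjusted p = 0.0471 and 0.0133), and 1453438_x_at also without forestomach array 1 (0.0455). Against the forestomach all 5 were called higher in the junction, by log2 differences of 5.20 to 6.25. These sizes also rest on single forestomach arrays: 1432140_at was 47.1-fold higher with all arrays, 27.1-fold without forestomach array 1, 72.0-fold without array 3, 26.3-fold without series 1, 72.6-fold without series 3 and 141-fold without arrays 2 and 3. Over the 5 probe sets and all alternatives the fold ran from 22.7 to 360. Probe sets whose names end in _s_at or _x_at can bind transcripts of related genes, so 3 of the 5 may read other members of the A group as well.

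**Figure D2:**
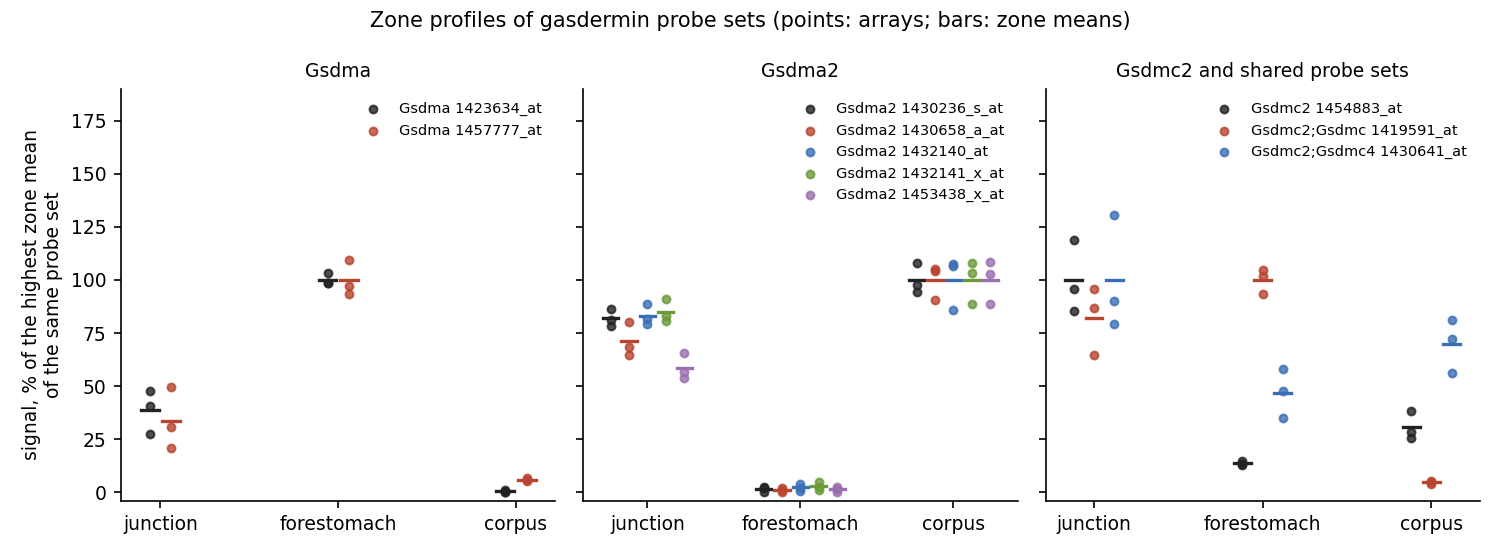
Signal of Gsdma, Gsdma2 and gasdermin C group probe sets in junction, forestomach and corpus, as a percent of the highest zone mean of the same probe set. Points are arrays and bars are zone means of 3 arrays. Gsdma 1423634_at stands at 38.7% in the junction and 0.537% in the corpus, Gsdma2 1432140_at at 83.1% in the junction and 2.23% in the forestomach, and Gsdmc2 1454883_at at 13.7% in the forestomach and 30.6% in the corpus.

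Gsdmc2, a gasdermin C gene known from intestinal epithelium, was the member that peaked at the junction. Its probe set 1454883_at had signals of 508.2, 633.2 and 454.2 in the junction, against 69.2, 79 and 69.6 in the forestomach and 135.4, 202.6 and 150.4 in the corpus. Every junction array exceeded all 6 arrays of the neighbours, and every corpus array exceeded all forestomach arrays. The zone means were 532 ± 91.8 in the junction, 72.6 ± 5.55 in the forestomach and 163 ± 35.3 in the corpus (SD, n = 3 each). The junction was 3.15-fold above the corpus (log2 difference 1.66 ± 0.17, limma adjusted p = 3.53e-04) and 6.52-fold above the forestomach (2.71 ± 0.17, adjusted p = 9.96e-06). Both calls stood in all 24 alternatives, with log2 differences of 1.53 to 1.82 and 2.43 to 2.84. A junction signal called above both neighbours was found for 239 of the 29511 probe sets, or 0.810%. The forestomach was 2.07-fold below the corpus (-1.05 ± 0.17, adjusted p = 9.29e-04).

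The intestinal markers did not move as 1 group. Of 7 intestinal epithelium genes 4 were measured, and 0 of them were called higher in the junction than in the corpus, while 1, the apolipoprotein gene Apoa4, was called lower (-0.99). Vil1, the microvillus protein villin, had the zone order of Gsdmc2, with 257.1, 261.6 and 289 in the junction, 2.4, 22.3 and 25.6 in the forestomach and 151.8, 100.1 and 230 in the corpus. Its junction arrays lay above all others, and it was called against the forestomach (3.54, limma adjusted p = 2.60e-04) but not against the corpus (0.78, adjusted p = 0.213). The summed signal of the 4, most of it from Apoa4 and the fatty acid binding protein gene Fabp2, was 955.2 to 1131.4 in the junction, 36.1 to 75.5 in the forestomach and 1411.8 to 1469.6 in the corpus, and the intestinal homeobox genes Cdx1 and Cdx2 did not pass the filter. The leukocyte markers had a summed signal of 6238.5 to 7394.8 in the junction, 5983.1 to 6987.6 in the forestomach and 2949.5 to 3190.7 in the corpus. Of the 10 measured, 7 were called higher in junction than corpus and 1 higher in junction than forestomach, the calprotectin subunit gene S100a8, which squamous cells also express. The part of leukocytes in the Gsdmc2 values was not tested.

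The genes most like Gsdmc2 lay farther from it than those like Gsdma, at 0.35 to 0.39 (median over all named genes 1.18). They were Siglecf (0.35), a sialic acid receptor known from eosinophils and tuft cells, Dclk1 (0.35), a kinase known as a tuft cell marker, the lipoxygenase gene Alox15 (0.38), Lrmp (0.38), an endoplasmic reticulum membrane protein also found in tuft cells, and the secreted protease inhibitor gene Wfdc2 (0.39). Dclk1 read 343.3, 383.8 and 360.2 in the junction, against 30.6, 48.1 and 60.8 in the forestomach and 133.5, 141.7 and 181.1 in the corpus. As for Gsdmc2, its junction arrays were the highest and its forestomach arrays the lowest, with log2 differences of 1.21 against corpus and 2.76 against forestomach.

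**Figure D3:**
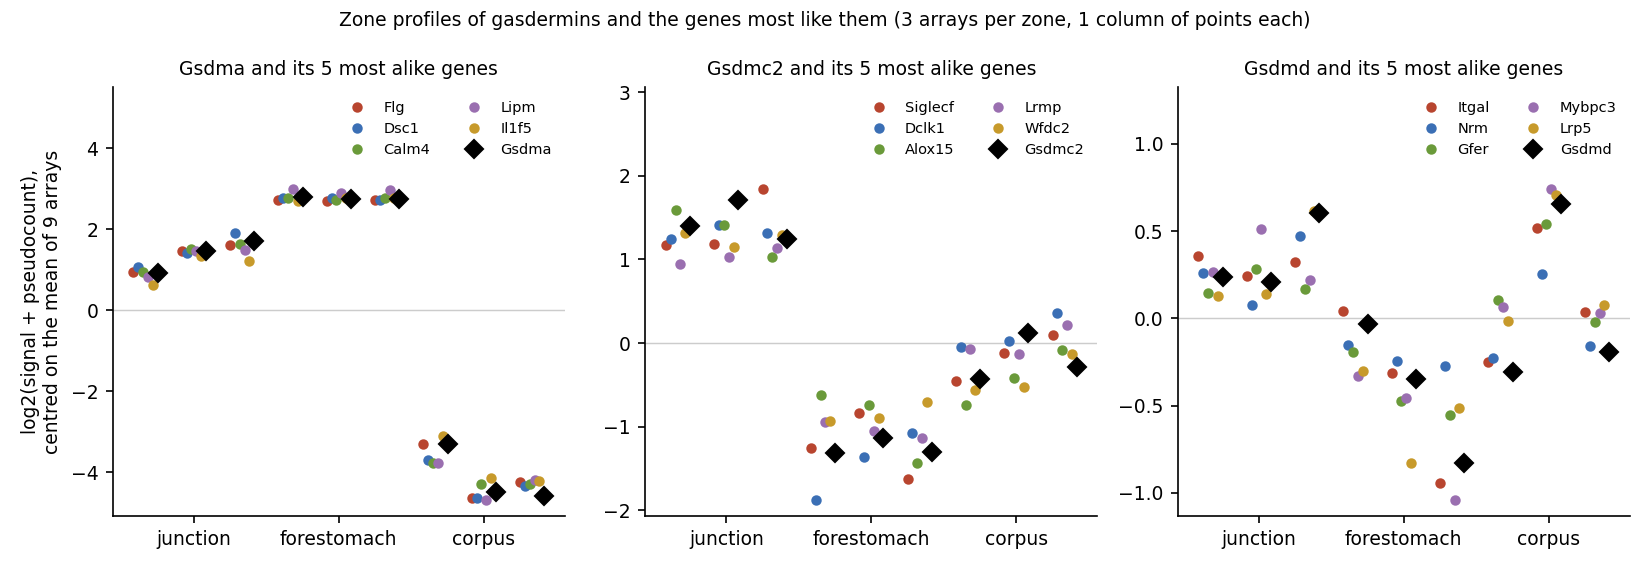
Gsdma, Gsdmc2 and Gsdmd (black diamonds) with the 5 genes most like each, as log2(signal + 9.8) centred on the mean of the 9 arrays, for junction, forestomach and corpus with 3 arrays each. Distances from the gasdermin are 0.13 to 0.27 for Gsdma, 0.35 to 0.39 for Gsdmc2 and 0.14 to 0.25 for Gsdmd, and the vertical axes differ in range between panels.

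Probe sets shared between gasdermin C genes did not all behave like Gsdmc2. The annotation gives 1419591_at to both Gsdmc2 and Gsdmc, and the transcript it lists for that probe set is 1 of Gsdmc in the gene table, so the value cannot be assigned to either gene. It read 935.6, 1257.2 and 1385.8 in the junction, 1477.9, 1520.8 and 1353.4 in the forestomach and 68.9, 55.2 and 76.2 in the corpus. Junction and forestomach overlapped (log2 difference -0.30 ± 0.17, limma adjusted p = 0.195), and both stood apart from the corpus, by 15.6-fold (3.96 ± 0.17, adjusted p = 2.11e-06) and 19.2-fold (4.26 ± 0.17, adjusted p = 2.97e-07). Its forestomach minus corpus difference thus had the opposite sign to that of Gsdmc2 1454883_at, each called in its own test under all alternatives run on it. The probe set shared by Gsdmc2 and Gsdmc4, 1430641_at, read 458.4, 665.3 and 402.8 in the junction, 177.5, 241.7 and 295.4 in the forestomach and 285.1, 414.0 and 368.0 in the corpus. Its order of zone means was that of Gsdmc2, but it was called only between junction and forestomach (1.06 ± 0.24, adjusted p = 0.00854, lost without series 1 or series 2 at 0.0562 and 0.0686). Against the corpus the junction gave 0.49 ± 0.24 (adjusted p = 0.188) and the forestomach -0.57 ± 0.24 (adjusted p = 0.0751, 0.0466 with the series as a block and 0.0454 without forestomach array 3).

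Gsdmd, the executor of inflammasome-driven pyroptosis, was measured in all zones. Its probe set 1428767_at read 195.1, 191.1 and 254.5 in the junction, 160.2, 126.7 and 88.1 in the forestomach and 130.8, 263.4 and 142.3 in the corpus. Junction arrays lay above all forestomach arrays, while the corpus arrays overlapped both. The log2 differences were 0.75 ± 0.28 for junction minus forestomach (1.69-fold, limma adjusted p = 0.0675, unadjusted p = 0.0275), 0.30 ± 0.28 for junction minus corpus (adjusted p = 0.496) and -0.45 ± 0.28 for forestomach minus corpus (adjusted p = 0.211). Corpus array 2, at 263.4, widened the shared spread: without it the junction minus forestomach difference was called at the same size (adjusted p = 0.0264), as it was on the 6 arrays of both zones alone (0.0406). Over all alternatives that adjusted p ranged from 0.0264 to 0.523. The genes most like Gsdmd were Itgal, a leukocyte integrin subunit (0.14), the nuclear membrane protein gene Nrm (0.24), the sulfhydryl oxidase gene Gfer (0.24), the sarcomere protein gene Mybpc3 (0.25) and the Wnt co-receptor gene Lrp5 (0.25), where the median over all named genes was 0.56. Like Gsdmd, each of them had its highest corpus signal on array 2 (Itgal 94.2, against 51.3 and 64.7), so this likeness includes that array. In the forestomach Mybpc3 (12.3 to 26.4) and Lrp5 (17.1 to 29.1) lay near or below the filter level.

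Of the other family genes, Gsdme, which caspase-3 cuts, had 1 kept probe set of 2. That probe set, 1421534_at, read 114.2, 106.9 and 115.8 in the junction, 146.0, 170.0 and 110.9 in the forestomach and 120.7, 107.5 and 122.8 in the corpus. The zones overlapped and no comparison was called (limma adjusted p from 0.147 to 0.831), except without forestomach array 3, when the forestomach was called above the corpus (0.40, adjusted p = 0.0275) and the junction below the forestomach (-0.46, adjusted p = 0.0251). The probe sets of the gasdermin C pseudogenes Gsdmcl1 and Gsdmcl-ps did not pass the filter, and the kept one of Gsdmcl2 was not called in any comparison (adjusted p from 0.0734 to 0.884), though the forestomach was called below both other zones without forestomach array 2, without series 2 and without forestomach arrays 2 and 3. No probe set carried Gsdma3, Gsdmc3, Gsdmc4 or Pjvk alone.

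Upstream of the gasdermins, Casp1, Pycard and Nlrp10 were higher in junction and forestomach than in the corpus, and Naip2 and Naip6 were lower in the forestomach. Inflammasomes are protein platforms in which a sensor, often through the adaptor ASC (Pycard), activates caspase-1 (Casp1), the protease that cuts gasdermin D and matures interleukin-1β and interleukin-18. Casp1 read 212.7, 272.6 and 311.7 in the junction, 478.8, 481.0 and 414.6 in the forestomach and 33.7, 15.3 and 25.2 in the corpus. The 3 zones did not overlap, and Casp1 rose in the junction (3.02 ± 0.21, limma adjusted p = 2.90e-05) and in the forestomach (3.79 ± 0.21, adjusted p = 1.51e-06) against the corpus. Its junction minus forestomach difference of -0.78 (adjusted p = 0.0193) was lost without junction array 1, forestomach array 1 or 2, or any series (adjusted p from 0.0554 to 0.0948), or without forestomach arrays 2 and 3 (0.122). Pycard read 3074.3, 3673.0 and 4410.8 in the junction, 4189.3, 4497.5 and 4449.2 in the forestomach and 1272.1, 1615.1 and 1243.4 in the corpus. It rose against the corpus in both squamous-bearing zones, by 1.42 and 1.67 (adjusted p = 4.91e-04 and 3.16e-05), with smaller differences of 0.47 to 0.72 and 0.49 to 0.81 on its other probe sets. Nlrp10, a sensor family member known from skin, rose most within its list, by 3.72 in the junction and 5.10 in the forestomach against the corpus (adjusted p = 1.83e-05 and 6.47e-07). Its corpus signals of 13.5, 6.3 and 6.5 lay below the filter level. Over the alternatives the Nlrp10 differences ran from 2.73 to 4.64 in the junction and from 4.04 to 6.06 in the forestomach. The bacterial protein sensors Naip2 and Naip6 fell in the forestomach against the corpus, with log2 differences of -2.05 and -2.62 (adjusted p = 4.50e-06 and 1.28e-05). Nlrp3, the most studied sensor, lay near the filter level and was not called (adjusted p from 0.582 to 0.842).

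The list of 17 inflammasome genes held sensors, adaptors and regulators of sensors, and 12 were measured. Lists count 1 probe set per gene, while the shares set beside them, here and for the other lists, are over all probe sets. With 1 probe set per gene the shares called were higher. They were 59.9% for forestomach minus corpus, 25% for junction minus corpus and 44.6% for junction minus forestomach, against 52.8%, 19.1% and 37.4%. In the forestomach against the corpus 3 rose and 6 fell (median difference -0.24), beside 25.2% of all probe sets called higher and 27.6% called lower (median -0.04). In the junction against the corpus 2 rose and 1 fell (median -0.03), beside 9.14% and 9.93% (median -0.10), and the single fall, Naip6 (-0.84, adjusted p = 0.0262), was lost without junction array 2, any corpus array, or series 2 or 3 (adjusted p up to 0.150). In the junction against the forestomach 5 rose and 1 fell (median 0.16), beside 17.3% and 20% (median -0.05). The squamous markers were mostly called higher in both zones than in the corpus, as given above. Of the 10 leukocyte markers measured 7 were called higher and 1 lower (Cd79a) in the forestomach than in the corpus, and 7 and 0 in the junction. S100a9 differed most, by 5.56 in the forestomach and 6.00 in the junction, where the list medians were 0.70 and 0.65. The part of squamous and leukocyte content in the Casp1 and Pycard values was not tested.

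Among the other proteases that cut gasdermins, caspase-8 (Casp8), which cuts human gasdermin C, read 420.6, 466.0 and 410.1 in the junction, 257.9, 283.9 and 239.1 in the forestomach and 426.6, 484.6 and 480.0 in the corpus. It was lower in the forestomach than in the corpus (-0.81 ± 0.11, limma adjusted p = 3.03e-04) and higher in the junction than in the forestomach (0.71 ± 0.11, adjusted p = 0.00120), and junction and corpus overlapped. Casp6, an apoptotic caspase, fell in the forestomach against the corpus (log2 difference -3.21, adjusted p = 2.83e-07) and was higher in the junction than in the forestomach (2.97, adjusted p = 1.51e-06). Its other kept probe set disagreed on the junction, with log2 differences of -1.54 for forestomach minus corpus, -1.30 for junction minus corpus, both called, and 0.23 for junction minus forestomach, not called. Casp4, mouse caspase-11, which cuts gasdermin D after sensing bacterial lipopolysaccharide, was dim and its calls were not firm. It read 41.6, 53.0 and 104.3 in the junction, 60.7, 56.1 and 23.1 in the forestomach and 4.0, 19.7 and 24.0 in the corpus. The junction minus corpus difference of 1.58 ± 0.44 (adjusted p = 0.0374) gave 0.0622 when series was fitted as a block and was lost with pseudocount 1, with no filter and without junction array 2 or 3, forestomach array 2, corpus array 1 or 2, or any series (up to 0.157). The forestomach minus corpus difference of 1.16 (adjusted p = 0.0524) was called in 10 of 23 alternatives, among them without junction array 3, forestomach array 3, corpus array 3 or series 3 (down to 0.0132). Granzyme A (Gzma), which cuts human gasdermin B, read 26.0, 23.5 and 4.1 in the junction, 55.2, 35.1 and 31.3 in the forestomach and 34.5, 18.7 and 8.2 in the corpus. All its junction arrays and corpus arrays 2 and 3 lay below the filter level, where signals have no firm order. Gzma was not called, except with the series as a block, where the forestomach was above the corpus (0.80, adjusted p = 0.0191) and the junction below the forestomach (-0.95, adjusted p = 0.0145). Neutrophil elastase (Elane) did not pass the filter, with a signal of at most 44.7. This list of 12 genes held death caspases as well as proteases that cut gasdermins, and 7 were measured. Of these 2 were called higher and 3 lower in forestomach than corpus, 2 and 0 in junction against corpus, and 3 and 2 in junction against forestomach (medians 0.80, 0.16 and 0.42). Over all probe sets the shares called higher and lower were 25.2% and 27.6%, 9.14% and 9.93%, and 17.3% and 20% in the same order of comparisons.

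Genes of the interleukin-1 family, whose cytokines can leave cells through gasdermin pores, were mostly higher where squamous epithelium was present. The list of 16 genes held ligands, antagonists and receptors, so its counts are not counts of released cytokines. Of these genes 15 were measured. In the forestomach against the corpus 10 rose and 2 fell (median 1.82), beside 25.2% and 27.6% of all probe sets (median -0.04). In the junction against the corpus 9 rose and 0 fell (median 1.36), beside 9.14% and 9.93% (median -0.10). Against the forestomach 3 were higher and 8 lower in the junction (median -0.40), beside 17.3% and 20% (median -0.05). The interleukin-36 ligand genes Il1f6, Il1f8 and Il1f9 (α, β and γ) rose in the forestomach by 6.21, 5.33 and 5.19, and in the junction by 5.21, 3.72 and 3.82, against the corpus (limma adjusted p from 1.88e-07 to 6.52e-06). Il1f6 read 1628.7, 2591.5 and 2547.4 in the junction, 3953.8, 4927.5 and 4422.2 in the forestomach and 82.1, 35.7 and 41.6 in the corpus, with no overlap between zones. Their antagonist gene Il1f5, already named among the genes most like Gsdma, rose by 6.58 and 4.89 in forestomach and junction. The other kept Il1f5 probe set gave smaller differences of 3.78 and 1.72, both called.

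The classic pyroptotic cargoes moved less. Il1b read 97.3, 76.3 and 61.2 in the junction, 50.2, 37.4 and 36.2 in the forestomach and 73.7, 89.1 and 61.8 in the corpus. It was lower in the forestomach than in the corpus (-0.73 ± 0.19, limma adjusted p = 0.0107, 0.134 without series 2 and 0.210 without forestomach arrays 2 and 3) and higher in the junction than in the forestomach (0.78, adjusted p = 0.0117, lost without series 1 or 2 at 0.0514 and 0.0911 and without forestomach arrays 2 and 3 at 0.214). Il18 read 4080.6, 4093.2 and 4558.9 in the junction, 5213.6, 5858.6 and 5754.2 in the forestomach and 3703.9, 3417.4 and 3409.7 in the corpus. The forestomach was above the corpus (0.67 ± 0.10, adjusted p = 5.44e-04) and the junction lay between (junction minus corpus 0.27, adjusted p = 0.0928; junction minus forestomach -0.40, adjusted p = 0.0135, lost without any 1 series at up to 0.137 and without forestomach arrays 2 and 3 at 0.210). Il1a, an alarmin of keratinocytes, read 46.0, 29.6 and 56.0 in the junction, 128.2, 194.8 and 120.5 in the forestomach and 11.4, 18.1 and 4.7 in the corpus. The zones did not overlap, and it rose in the forestomach by 2.91 (adjusted p = 4.43e-05) and in the junction by 1.36 (adjusted p = 0.0130, 0.110 without series 1 and 0.118 without series 3), against the corpus.

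**Figure D4:**
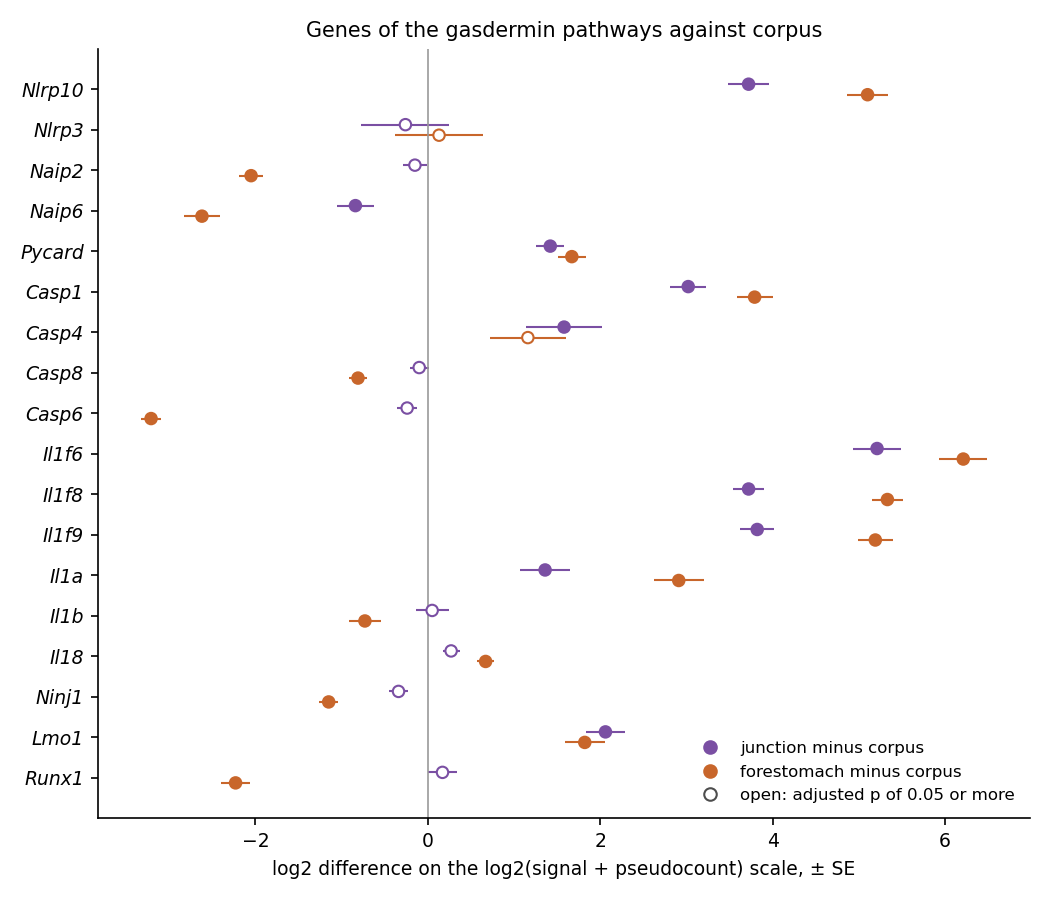
Log2 differences (± SE, log2(signal + 9.8) scale) of 18 genes of the gasdermin pathways, junction minus corpus in purple and forestomach minus corpus in orange. Filled points have a limma adjusted p below 0.05. Casp1 (3.02 and 3.79), Nlrp10 (3.72 and 5.10) and Il1f6 (5.21 and 6.21) lie to the right in both, while Casp6 (-3.21), Runx1 (-2.23) and Ninj1 (-1.15) are filled on the left in the forestomach and open in the junction.

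Among genes that act after the pore is Ninj1, whose protein tears the plasma membrane at the end of lytic death. It read 1492.5, 1420.6 and 1269.9 in the junction, 794.2, 800.6 and 780.0 in the forestomach and 1830.2, 1893.4 and 1580.3 in the corpus. Ninj1 was lower in the forestomach than in the corpus (-1.15 ± 0.11, limma adjusted p = 3.74e-05) and higher in the junction than in the forestomach (0.81, adjusted p = 6.40e-04). Its junction arrays lay below all corpus arrays at -0.34 (adjusted p = 0.0624), which was called in 5 alternatives, among them without corpus array 3 at 0.0488. The 3 other kept Ninj1 probe sets gave -0.38, 0.22 and -0.34 for junction minus corpus, 0 of them called. For forestomach minus corpus they gave -1.01, -0.23 and -1.05, 2 of them called. For junction minus forestomach they gave 0.63, 0.45 and 0.71, 2 of them called. Of the 13 genes of rupture, membrane repair and pore partners, all measured, 0 were called between junction and corpus by limma at adjusted p below 0.05, and 4 rose and 5 fell in the forestomach against the corpus (median differences 0.04 and 0.06). All probe sets were called at 19.1% between junction and corpus, and at 25.2% higher and 27.6% lower between forestomach and corpus. Of 10 necroptosis genes, an alternative lytic death route, 9 were measured, 1 rose and 1 fell in the forestomach against the corpus (median 0.09) and 0 were called between junction and corpus (median -0.06), beside the same shares. In the junction against the forestomach 4 rupture, repair and partner genes rose and 2 fell (median 0.08). Of the necroptosis genes 2 rose and 1 fell there (median -0.08), and of all probe sets 17.3% and 20%.

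Among genes reported to act on gasdermin promoters or on the cytokine receptors upstream of them, Lmo1 and Runx1 changed most. Lmo1, a LIM-domain factor reported to control the human gasdermin A gene in gastric epithelium, read 172.5, 237.4 and 278.4 in the junction, 236.0, 185.3 and 153.0 in the forestomach and 56.2, 52.4 and 33.7 in the corpus. It was higher in junction and forestomach than in the corpus, without overlap, by 2.06 ± 0.23 and 1.82 ± 0.23 (limma adjusted p = 5.81e-04 and 2.16e-04). Runx1, a runt-domain factor, read 163.6, 154.4 and 166.7 in the junction, 26.1, 27.9 and 15.2 in the forestomach and 160.3, 120.1 and 148.5 in the corpus. The forestomach lay below both other zones, at -2.23 against the corpus (adjusted p = 1.01e-05), and the junction was 2.40 above the forestomach (adjusted p = 1.89e-05). Of the 12 genes of this list 11 were measured, with 4 called higher and 4 lower in forestomach than corpus (median -0.06), 3 and 1 in junction against corpus (median 0.17), and 2 and 0 in junction against forestomach (median 0.11). Set beside these, 25.2% and 27.6%, 9.14% and 9.93%, and 17.3% and 20% of all probe sets were called higher and lower.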

How the data were processed

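RNA isolated with Trizol was turned into biotin-labelled cRNA and read on 1 Affymetrix mouse array per zone and pool, per the labels' protocols. The deposited values are linear intensity signals per probe set, which the authors computed in MAS5, as the submitters' processing notes say (version and settings not given in the sources used here). MAS5 subtracts mismatch probes, which leaves dim signals noisy. Every array has a trimmed mean of 199.9.

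Of 45101 probe sets, 64 controls were left out. The platform annotation of 2016 gives 1 symbol to 34958, several to 932 and none to 9211. Entrez IDs led 34754 of them to the current symbol in the GRCm38.p6 gene table. Testing was limited to the 29511 probe sets that exceeded their array's 40th percentile on 3 arrays or more. Values were tested as log2(signal + 9.8), where 9.8 is the arrays' median 20th percentile, with limma 3.58.1 in R 4.3.3: all 9 arrays, 1 mean per zone, moderated and two-sided, with 6 residual degrees of freedom and a prior of 2.69, Benjamini-Hochberg adjustment over all kept probe sets, threshold 0.05. The brightest kept probe set (mean log2 value) represents a listed gene. The number of arrays limits the precision.

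Zones of a series come from the same mice, per the design text, so the series number pairs the arrays. Deviations from zone means correlated at r from -0.0124 to 0.0979 within series (9 pairs). Alternatives were other pseudocounts (1 and 30.9), no filter or one at the 60th percentile, quantile normalization, median centring, 1 probe set per gene or their mean, limma with trend and robust options, the 6 arrays compared, the series as a block, and dropping single arrays or a whole series. Dropping forestomach arrays 2 and 3 together was added after seeing the data. Named genes were drawn from every gasdermin probe set, a fixed set of pathway genes, up to 4 called genes per list and comparison whose arrays do not overlap, and the 5 genes most like each gasdermin. Not every list gene that met this rule is named. Gkn1, Gkn2, Tff1, Cdx1 and Cdx2 fall outside this rule. Members and lists were chosen with earlier results of these data known. Il36a, Il36b, Il36g and Il36rn were matched through synonyms to Il1f6, Il1f8, Il1f9 and Il1f5. Figures were drawn with matplotlib 3.10.9 in Python 3.11.15. No coordinates are given, since no build is named for the arrays.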

Additional observations from a re-analysis of the deposited data

How the results depend on the processing

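Of 282 recomputed differences of the 4 gasdermin probe sets, 274 kept their direction and side of the threshold, 3 lost and 5 gained the call, and 0 changed sign. The losses were junction minus forestomach for Gsdma 1423634_at (-1.41 with pseudocount 1, -1.44 without forestomach arrays 2 and 3, -1.58 to -1.15 on leaving out single arrays or series) and the gains were the same comparison for Gsdmd (0.67 with pseudocount 30.9, 0.75 with the 60th percentile filter, with trend and robust options and on the 6 arrays, 0.38 to 1.0 on leaving out single arrays or series, 0.41 without series 3). Of 13637 genes, 8168, 3406 and 6079 were called with 1 probe set per gene (59.9%, 25% and 44.6%) and 7921, 3317 and 5848 with their mean (forestomach minus corpus, junction minus corpus, junction minus forestomach). On leaving out arrays the counts of probe sets called were 1448 to 5398 for junction minus corpus, against 5625 with all arrays (lowest without series 2, and also moved by over 1.5 times without junction array 2 or 3, corpus array 1, or series 1 or 3), and 6410 to 10697 for junction minus forestomach, against 11024 (6410 and 7242 without series 1 and 3), with 6212 without forestomach arrays 2 and 3. The cause was not tested for any of these. With the series as a block the counts were 15515, 5208 and 10853 and no gasdermin member changed its call. Median centring moved the median junction minus corpus difference to 0.01, against -0.10, and the share of higher among called probe sets to 66.5%, against 47.9%. Differences not called that changed sign were Gsdme (0.05) and Casp8 (0.00) for junction minus corpus under median centring, and, on leaving out single arrays or series, Il1b (-0.11 to 0.19), Gzma (-0.48 to 0.29) and Nlrp3 (-0.61 to 0.39) for junction minus corpus, Nlrp3 (-0.74 to 0.26) and Casp4 (-0.26 to 0.86) for junction minus forestomach and Nlrp3 (-0.08 to 0.45) for forestomach minus corpus. MAS5 signals below the filter level have no firm order. This limits the folds against corpus of Gsdma and of other genes dim there, such as Nlrp10 and Il1a.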
